A study of Mus musculus with 12 samples.

Results

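The 40 genes described here are a module of cell cycle genes, taken as a named list out of the 31053 genes counted in each of the 2 matrices. The rule that chose them uses their names and no measured value, but they were chosen with earlier results of these data known. It holds 7 cyclins, CDK and CDK subunit genes, 8 genes of mitotic kinases, the spindle checkpoint and the anaphase-promoting complex (APC), 8 genes of the spindle and cytokinesis, 3 centromere genes, 11 genes of DNA replication and nucleotide supply, and 3 genes of chromatin and growth. All 40 symbols were found in both matrices.

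A cell that divides first copies its DNA and then separates the copies. At the start of S phase, E type cyclins and the E2F factors drive transcription of the replication genes, among them the MCM helicase, the sliding clamp *Pcna*, and the enzymes that supply deoxynucleotides. Before mitosis, *Cdk1* bound to A and B type cyclins becomes active, and genes for the spindle, the centromere, and the APC are transcribed through promoters that hold CHR and CCAAT elements. Tumor macrophages and dendritic cells (DC) were long seen as mostly nondividing, although division has been described for both in tissue, whereas T cells divide when they meet antigen.

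The cells came from the tumor microenvironment (TME) of 2 mouse lines, PyMT-PAR2 WT and PyMT-PAR2 G37I. Both carry the B6(Cg) MMTV-PyVT transgene, in which the MMTV promoter drives the polyoma virus middle T oncogene in mammary epithelium, and the G37I allele of *F2rl1* gives a PAR2 that resists signaling by factor Xa. No treatment was given. CD11c-selected cells were taken with beads from late-stage tumors and CD4/CD8-selected cells from tumors of middle size, frozen in serum with DMSO, thawed, and run on the 10x platform, with 3 biological replicates, stated to be independent, for each genotype and selection. Each of the 2 matrices pools 6 samples and its barcodes name none of them. Each matrix is therefore 1 sample here, no genotypes are compared, and no p-values are given.

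The unit is the unique molecular identifier (UMI), 1 for each captured mRNA molecule. The CD11c-selected matrix held 11639 cells with at least 200 detected genes (median 7943 UMIs) and the CD4/CD8-selected matrix 22806 (median 4361 UMIs), of which 8572 and 16917 had 3000 or more UMIs and were thinned at random to 3000 each. In each matrix the barcodes run through the alphabet 6 times. These 6 barcode runs were linked to no sample or genotype, and ranges over runs of at least 20 cells describe the spread within a matrix. Of the barcodes, 92 occurred in both matrices, and 76 and 51 occurred more than once within the CD11c-selected and the CD4/CD8-selected matrix. Levels are UMIs per 1000000 of the thinned cells (CPM) with exact Poisson 95% intervals, shares have exact Clopper-Pearson 95% intervals, and both cover counting error only.

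Cell types were gated on raw UMIs of marker genes. The CD11c-selected matrix gave 4807 macrophages (C1q genes with a sum over macrophage genes that included *Adgre1*, *Csf1r*, *Fcgr1*, and *Mertk*), 370 cDC1 (*Xcr1*, *Clec9a*), 174 cDC2 (*Cd209a* with *Flt3* or *Zbtb46*), and 217 tumor cells (keratins and *Epcam*). The CD4/CD8-selected matrix gave 12716 CD8 T cells, 428 conventional CD4 T cells, and 49 Tregs (*Foxp3*), and a further 746 macrophages and 200 tumor cells. Migratory DC (334 cells) and neutrophils (52 cells), types of which little division is known, served as reference gates. In each of the 7 types at least 3 of 5 separate check markers were detected in 25% or more of the cells. The cDC2 gate also showed 4 of 5 macrophage check markers at a summed 2379 CPM, and the CD4 gate 3 of 5 CD8 check markers at 2330 CPM, and the part of these in the values of both gates was not tested. The migratory DC gate held macrophage check genes at 1110 CPM (a UMI in 64.4% of cells), CD8 check genes at 1967 CPM (51.5%; Ccl5 in 47.0%, Nkg7 and Gzmk in 0%), and fibroblast check genes at 797 CPM (4.49%), and their part in its member levels was not tested. Of the cells with 3000 or more UMIs, 2421 and 2738 fell in no gate.

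G1/S and G2/M members, lists fixed by role, are kept apart in what follows, and their promoters were searched for motifs. RefSeq promoters (GRCm38.p6, from 250 bases before to 50 bases after the gene start) were given for 33 of the 40 members. Not matched were *Stmn1*, *Tpx2*, *Mcm4*, *Ccna2*, *Ccne2*, *Aurkb*, and *Kif20a*. Motifs were searched on both strands as CHR (TTTGAA or TTCGAA), NF-Y (CCAAT), and E2F (TTCCCGC or TTGGCGC or TTCGCGC or TTGCCGC), and matches of E2F can overlap each other and an NF-Y match. Of 21 G2/M members, 16 (76.2%) held a CHR match and an NF-Y match, against 2 of 11 G1/S members (18.2%) and 9.65% of 27025 genes. E2F matches were in 7 of 11 G1/S members (63.6%), 3 of 21 G2/M members (14.3%), and 10.9% of all genes. A match describes letters in the window and is not a bound site. Below, 4 promoters are printed 5′ to 3′ in the direction of the gene, with the matches in capitals. *Ccnb2* (chr9:70421505-70421804, minus strand) stands for G2/M members whose UMIs lay almost all in cells with other member UMIs. *Mcm6* (chr1:128359656-128359955, minus strand) stands for replication members. *Cenpa* (chr5:30666636-30666935, plus strand) and *Hmgb2* (chr8:57511593-57511892, plus strand) had UMIs in many cells that lacked the others.
Ccnb2: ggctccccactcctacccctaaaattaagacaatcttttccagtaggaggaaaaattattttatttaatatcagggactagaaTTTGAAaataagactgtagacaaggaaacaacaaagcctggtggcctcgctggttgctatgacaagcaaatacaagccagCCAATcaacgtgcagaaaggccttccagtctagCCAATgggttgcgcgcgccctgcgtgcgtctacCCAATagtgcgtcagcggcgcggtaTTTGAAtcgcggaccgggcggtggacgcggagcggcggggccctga
Mcm6: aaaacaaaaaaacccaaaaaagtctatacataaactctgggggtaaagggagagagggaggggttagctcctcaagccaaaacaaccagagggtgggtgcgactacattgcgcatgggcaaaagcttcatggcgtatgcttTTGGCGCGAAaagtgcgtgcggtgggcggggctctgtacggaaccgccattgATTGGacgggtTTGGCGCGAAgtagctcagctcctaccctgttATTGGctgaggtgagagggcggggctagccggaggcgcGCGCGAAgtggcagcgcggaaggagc
Cenpa: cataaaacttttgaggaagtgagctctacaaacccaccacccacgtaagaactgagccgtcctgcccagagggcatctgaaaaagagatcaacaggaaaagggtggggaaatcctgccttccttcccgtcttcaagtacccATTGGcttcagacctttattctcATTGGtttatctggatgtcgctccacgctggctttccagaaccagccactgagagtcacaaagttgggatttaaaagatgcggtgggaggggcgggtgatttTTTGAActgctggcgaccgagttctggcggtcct
Hmgb2: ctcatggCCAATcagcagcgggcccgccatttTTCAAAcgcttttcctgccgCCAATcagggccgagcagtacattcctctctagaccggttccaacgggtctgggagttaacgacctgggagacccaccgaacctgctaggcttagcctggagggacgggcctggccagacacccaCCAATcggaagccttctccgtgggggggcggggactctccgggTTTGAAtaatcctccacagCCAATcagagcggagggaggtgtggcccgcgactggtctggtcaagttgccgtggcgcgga

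The *Ccnb2* window held 2 CHR and 3 NF-Y matches, the *Cenpa* window 1 and 2, and the *Hmgb2* window 2 and 4, and none of these windows held an E2F match. The *Mcm6* window held 5 E2F and 2 NF-Y matches and no CHR match. The *Top2a* window held 4 CHR and 6 NF-Y matches (*Top2a* is the topoisomerase that untangles DNA), and the *Ube2c* window 1 and 6. The window of *Birc5*, a subunit of the chromosomal passenger complex, held no match to any of the 3 motifs, which says only that these letters are not in that window.

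Summed over all 40 members, transcripts were highest in cDC1 and CD8 T cells and lowest in tumor cells. The summed level was 2311 CPM (2222–2402) in cDC1, 2234 (2219–2249) in CD8 cells, 1993 (1917–2072) in CD4 cells, and 1850 (1637–2084) in Tregs. Within the CD11c-selected cells, cDC2 stood at 1469 CPM (1367–1577) and macrophages at 1172 CPM (1155–1190). Tumor cells gave 513 CPM (460–571), and the 200 tumor cells of the CD4/CD8-selected matrix gave 515 CPM (459–576). The paper calls the tumor cells in the CD11c selection contaminating. Their median share of mitochondrial UMIs was 11.7% (9.24% in the CD4/CD8-selected matrix), against 4.05 to 5.06% in the other types. The part of this in the tumor cell levels was not tested. cDC1 and CD8 cells, neighbors in this order, overlapped in their intervals, as did CD4 cells and Tregs. When raw UMIs were summed without thinning, so that deep cells weighed more, the levels were 2974 CPM in CD8 cells, 2956 in Tregs, and 2782 in cDC1, and cDC1 no longer stood first. The 2 matrices were separate libraries from tumors of different stage, so that a difference between a myeloid and a T cell type cannot be told apart from a difference between matrices. The reference gates were not at 0: migratory DC showed 976 CPM (916–1039) and neutrophils 808 CPM (673–962).

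The sum is uneven in its makeup. *Hmgb2*, a chromatin protein that is also transcribed outside division, made up 47.3% of the member UMIs of CD4 cells, 34.7% of CD8 cells, 31.9% of cDC1, and 24.0% of macrophages. Of the members, 12 (*Stmn1*, *Hmgb2*, *Pcna*, *Tyms*, *Cks2*, *Rrm1*, and *Mcm2* to *Mcm7*) are called broad here, as genes that resting cells can also hold, and the other 28 narrow. This naming did not follow the data in every gene. In macrophages, cells with 5 or more member UMIs held 37.3% of the UMIs of *Cenpa*, a narrow member. For the broad members *Stmn1* and *Pcna* the values were 80.5% and 34.4%. *Cenpa* enters every narrow count, and its part in the order of the types was not tested. The broad members gave 78.2% of the member UMIs of CD4 cells, 68.7% of CD8 cells, 61.3% of macrophages, 59.4% of cDC1, and 52.2% of cDC2. In every one of these 5 types the broad members thus gave the larger part of the sum.

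Among CD8 cells, 43.7% (5553 of 12716; 42.8–44.5; runs 38.0–53.0) had 5 or more UMIs of the 40 members, and among macrophages 17.6% (848 of 4807; 16.6–18.7; runs 12.4–23.4). cDC1 stood at 34.1% (126 of 370; 29.2–39.1; runs 27.5–37.4) and cDC2 at 24.7% (43 of 174; 18.5–31.8; runs 10.7–46.2). CD4 cells stood at 47.9% (205 of 428; 43.1–52.7) and Tregs at 36.7% (18 of 49; 23.4–51.7). Of the tumor cells, 4.15% (9 of 217; 1.91–7.73) passed in the CD11c-selected and 3.00% (6 of 200; 1.11–6.42) in the CD4/CD8-selected matrix. Migratory DC gave 14.97% (50 of 334; 11.3–19.3) at a median of 9884 UMIs per cell before thinning, and neutrophils 9.62% (5 of 52; 3.20–21.03) at 3459 UMIs, so that the macrophage share (median 10105 UMIs) overlapped that of migratory DC and cDC2 within their intervals. The macrophages of the CD4/CD8-selected matrix, from tumors of middle size, were at 9.38% (70 of 746; 7.39–11.7; runs 3.39–11.7).

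The threshold cuts a continuous range in T cells and the tail of a skewed one in myeloid cells. CD8 cells most often held 3 member UMIs and CD4 cells 4, with 1873 CD8 cells at 4 UMIs and 1427 at 5, next to each other across the threshold. Macrophages, cDC1, and cDC2 most often held 1 member UMI, with 359 macrophages at 4 and 200 at 5, 25 and 11 cDC1, and 14 and 12 cDC2. The right tails reached 92 UMIs in a CD8 cell, 75 in a macrophage, and 40 in a cDC1. The share at 5 or more UMIs therefore marks a range of cells and not a type.

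**Figure D1:**
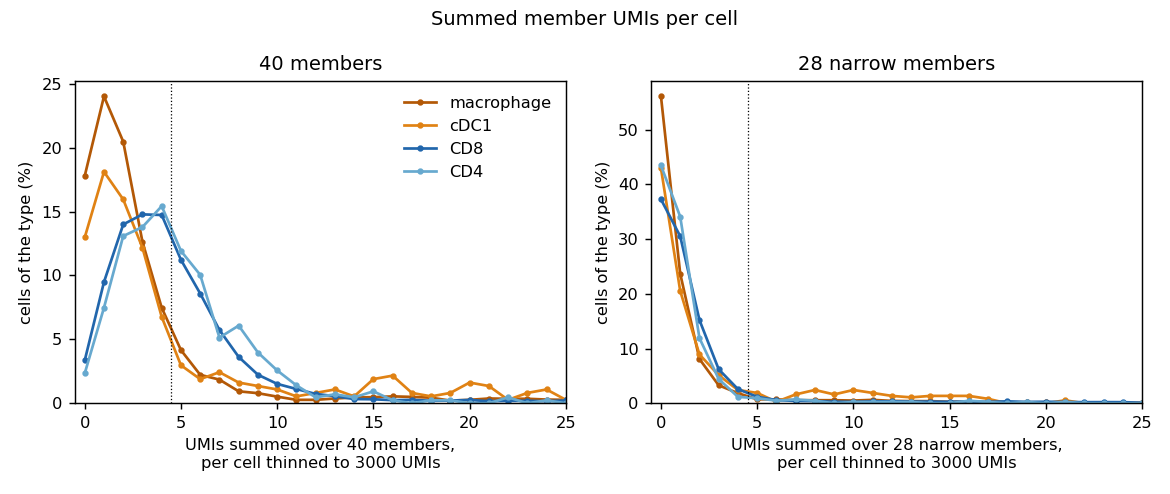
UMIs summed per cell (x axis; cells thinned to 3000 UMIs) over the 40 members (left) and the 28 narrow members (right), as percent of the cells of each gate (y axis), with the dotted line between 4 and 5 UMIs. CD8 and CD4 cells peak at 3 and 4 UMIs of the 40 members, close to the line, while macrophages and cDC1 peak at 1, and with the narrow members each of the 4 types peaks at 0 and cDC1 hold the largest tail past the line.

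Counted over the 28 narrow members, the order of the types was different. cDC1 had the largest share at 5 or more narrow UMIs, 20% (74 of 370; 16.04–24.4; runs 14.6–24.4), followed by cDC2 at 13.2% (23 of 174; 8.57–19.2; runs 7.14–19.1). CD8 cells were at 8.18% (1040 of 12716; 7.71–8.67; runs 5.38–11.3) and Tregs at 8.16% (4 of 49; 2.27–19.6). Macrophages were at 6.99% (336 of 4807; 6.28–7.75; runs 3.84–10.9) and CD4 cells at 4.91% (21 of 428; 3.06–7.40). cDC1 thus lay above CD8 cells and macrophages without overlap of the intervals or of the runs, and the intervals of cDC1 and cDC2 overlapped. CD4 cells, which had the largest share with all 40 members, had the smallest of these 6 immune types with the narrow members. Migratory DC were at 6.89% (4.42–10.2), as high as macrophages. No neutrophil passed (0 of 52, which allows a share of up to 5.77%).

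Many cells of each type held no narrow UMI at all. This was so for 85.7% of the tumor cells, 56.1% of macrophages, 43.5% of CD4 cells, 43.0% of cDC1, 37.3% of CD8 cells, 35.6% of cDC2, and 26.5% of Tregs. Cells with 5 or more narrow UMIs had been deeper before thinning than their gate, with a median of 9780 UMIs in CD8 cells (all CD8 cells 5121), 13488 in macrophages (10105), and 20660 in cDC1 (14792). Whether this is larger RNA content of dividing cells or doublets was not tested, and without the 5% of cells with most UMIs in each gate the CD8 share with 40 members was 41.8%.

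**Figure D2:**
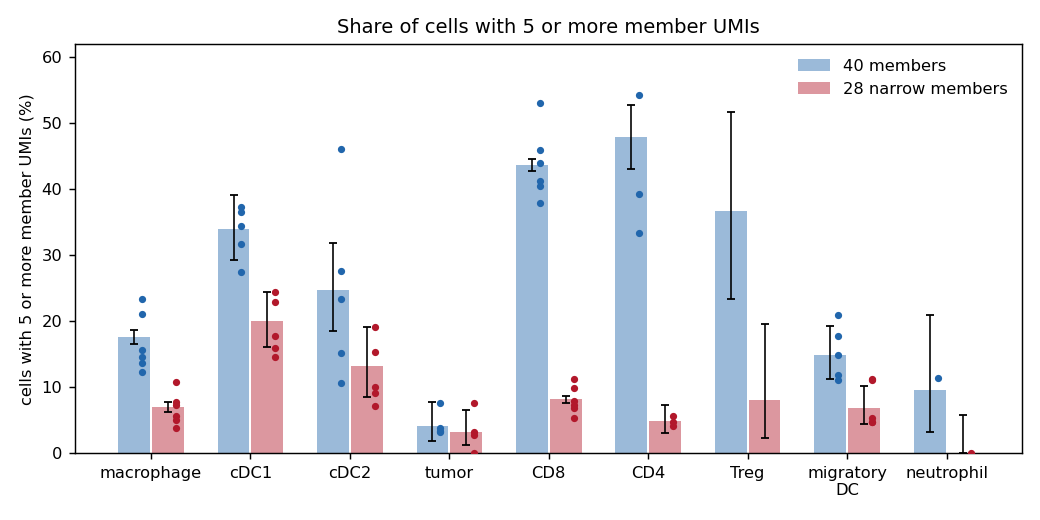
Percent of cells with 5 or more UMIs of the 40 members (blue) and of the 28 narrow members (red) in the 7 gates and 2 reference gates, with bars for the share, black lines for exact 95% intervals, and points for barcode runs of at least 20 cells. With 40 members CD4 and CD8 cells stand highest (47.9% and 43.7%), and with the narrow members cDC1 do (20%), while CD4 cells stand at 4.91%.

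Within the CD4/CD8-selected matrix, the first barcode run showed the choice of members most plainly. Of its 2771 CD8 cells, 53.0% (51.2–54.9) had 5 or more UMIs of the 40 members, the highest of the 6 runs, but 5.38% (4.57–6.28) had 5 or more narrow UMIs, the lowest of the 6. The CD8 cells of the other 5 runs together were at 41.1% (40.1–42.0) and 8.96% (8.41–9.54). The same run held 271 of the 428 CD4 cells, of which 54.2% passed with 40 members against 36.9% (29.4–45.0) of the 157 CD4 cells of the other runs, and 4.80% against 5.10% with the narrow members. Of the 205 CD4 cells that passed with 40 members, 147 were from this run.

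*Hmgb2* and *Cks2* stood high in that run while the mitotic members stood low. Among CD8 cells without any narrow UMI, *Hmgb2* was at 680 CPM (650–710) in run 1 and at 407 to 545 CPM in the other runs, and 79.1% of these cells held a *Hmgb2* UMI against 65.0 to 73.2%. *Cks2*, a small subunit that binds *Cdk1*, was at 145 CPM over all CD8 cells of run 1 and no higher in any other run (lowest 95.7). *Mki67*, the proliferation antigen that coats mitotic chromosomes, was at 32.6 CPM in run 1 and at 49.2 to 87.3 CPM in the other runs. *Top2a* was at 69.4 CPM in run 1 and at 90.9 to 142 CPM in the others. The summed narrow members were at 557 CPM in run 1, 887 in run 2, 738 in run 3, 591 in run 4, 670 in run 5, and 760 in run 6. No label links the runs to samples, so that what sets run 1 apart was not tested.

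**Figure D3:**
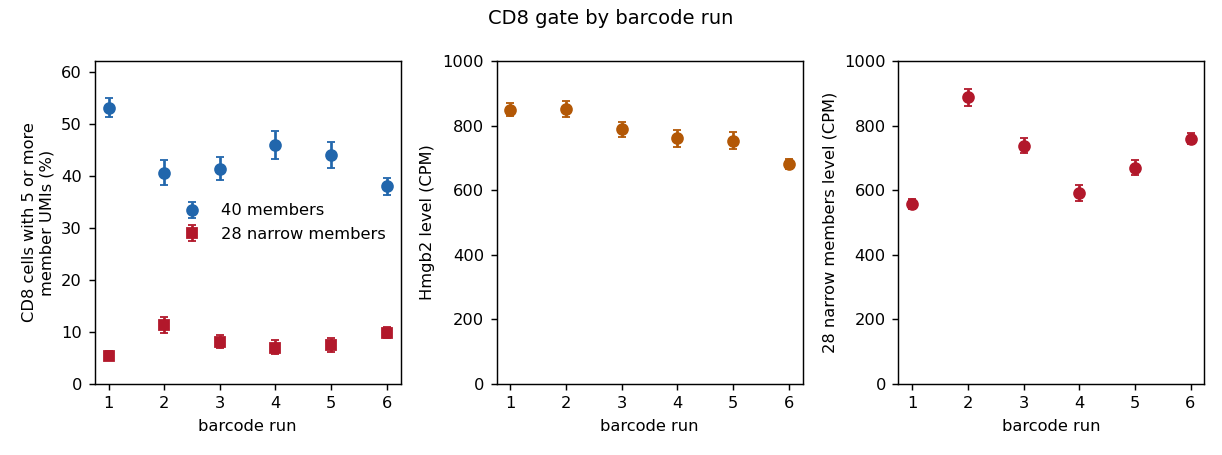
CD8 cells by barcode run (x axis, 1 to 6) with exact 95% intervals: percent with 5 or more UMIs of the 40 or the 28 narrow members (left), *Hmgb2* level (middle), and summed level of the narrow members (right), both in CPM. Run 1 is the highest with 40 members (53.0%) and the lowest with narrow members (5.38%), and its narrow members stand at 557 CPM against 887 CPM in run 2.

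Among macrophages, the run with the lowest share and those with the highest were the same by both counts. With 40 members the shares were 12.4, 15.6, 13.7, 14.7, 23.4, and 21.1% in runs 1 to 6, and with narrow members 3.84, 5.66, 4.99, 7.33, 10.9, and 7.85%. Run 1 stood lowest and runs 5 and 6 highest by both, while runs 2 and 4 changed places. Run 4, with 191 macrophages at a median of 29223 UMIs against 8623 to 10983 in the other runs, did not stand apart after thinning.

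Member by member, cDC1 held the highest level of 15 members, CD8 cells and Tregs of 9 each, cDC2 of 3, CD4 cells of 2, and macrophages and tumor cells of 1 each. Tumor cells held the lowest level of 23 members. Treg levels rest on 49 cells and 272 member UMIs, and many of the Treg intervals span those of all other types. Levels are compared below for 1 gene between cell types and never between genes. The order depended on how cells were weighted. With raw UMIs summed, Tregs held the highest level of 18 members, cDC1 and CD8 cells of 10 each, and CD4 cells of 2, and with a mean over cells cDC1 held that of 20, Tregs of 10, CD8 cells of 9, and CD4 cells of 1. Raw sums raised 20 of 40 member levels of CD8 cells by over 1.5 times (highest 1.97 times, in *Ccna2*), all of 20 or more UMIs, against 1 of 28 such levels in cDC1 and 1 of 40 in macrophages. The reads were not stated to be counted by strand, and *Ccna2*, *Ccne2*, *Cdc20*, *Ube2c*, *Nusap1*, *Kif20a*, *Prc1*, and *Mcm7* overlap a coding gene on the opposite strand in GENCODE M21.

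**Figure D4:**
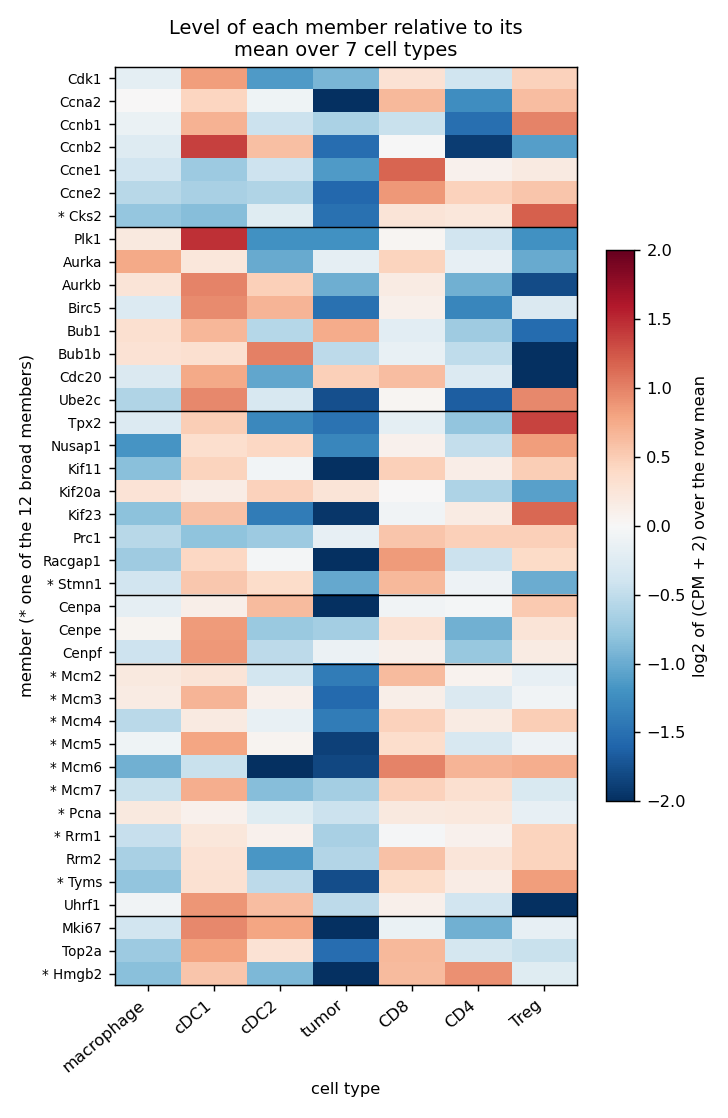
Level of each of the 40 members (rows, by role, broad members starred) in the 7 cell types (columns), as log2 of the level in CPM plus 2 over the mean of the row, from blue (low) to red (high). Mitotic members such as *Ccnb2*, *Plk1*, and *Birc5* are reddest in cDC1, *Mcm6* and *Ccne1* in CD8 cells, and most rows are bluest in tumor cells.

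Among the cyclins, the mitotic B type and the G1/S E type were highest in different types. *Ccnb2*, a partner of *Cdk1* in mitosis, was at 46.8 CPM (35.0–61.4) in cDC1, 26.8 (14.7–45.0) in cDC2, 16.8 (15.5–18.2) in CD8 cells, 13.9 (12.1–16) in macrophages, and 3.12 (0.849–7.98) in CD4 cells. *Ccne1*, which starts S phase with *Cdk2*, was at 15.4 CPM (14.2–16.7) in CD8 cells against 6.23 (2.69–12.3) in CD4 cells, 3.95 (2.99–5.12) in macrophages, and 2.70 (0.557–7.90) in cDC1. *Ccne2*, its close relative, was at 8.91 CPM (7.99–9.91) in CD8 cells and 2.08 (1.40–2.97) in macrophages. The cyclin order thus turned between cDC1 and CD8 cells. *Cdk1* itself was at 36.0 CPM (25.7–49.1) in cDC1, 23.8 (22.3–25.4) in CD8 cells, 16.5 (14.5–18.7) in macrophages, 14.0 (8.31–22.2) in CD4 cells, and 7.66 (2.09–19.6) in cDC2. *Ccna2*, which acts in S phase and G2, was at 14.0 CPM (12.8–15.2) in CD8 cells and 2.34 (0.482–6.83) in CD4 cells. No *Ccna2* UMI was seen in the 217 tumor cells of the CD11c-selected matrix (up to 4.61 CPM), but the 200 tumor cells of the CD4/CD8-selected matrix held 6. *Cks2* ran from 35.3 CPM (22.4–53.0) in tumor cells to 238 (166–331) in Tregs, with CD8 cells at 123 (119–126) and CD4 cells at 121 (102–141), which did not differ beyond their intervals. *Ccnb1* was low in all types, at most 13.6 CPM on 2 UMIs in Tregs.

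Of the mitotic kinase, checkpoint, and APC genes, *Ube2c* and *Birc5* stood higher in cDC1 than in CD8 cells and macrophages. *Ube2c*, the ubiquitin-conjugating enzyme of the APC, was at 82.0 CPM (66.0–101) in cDC1, about the same in Tregs (81.6; 42.2–143), 42.0 (39.96–44.1) in CD8 cells, 32.6 (19.0–52.1) in cDC2, 26.4 (23.8–29.1) in macrophages, and 11.7 (6.54–19.3) in CD4 cells. *Birc5* was at 66.7 CPM (52.3–83.7) in cDC1, 55.6 (37.2–79.8) in cDC2, 36.3 (34.4–38.2) in CD8 cells, 27.7 (25.1–30.6) in macrophages, 27.2 (7.41–69.7) in Tregs, and 12.5 (7.12–20.2) in CD4 cells. In both genes cDC1 stood above CD8 cells and macrophages without overlap of intervals, and CD4 cells lowest of the immune types. With raw sums the values of cDC1 and CD8 cells were 108 and 75.5 CPM in *Ube2c* and 72.6 and 66.1 in *Birc5*. *Plk1*, a kinase of mitotic entry, was at 10.8 CPM (5.59–18.9) in cDC1 and 3.33 (2.45–4.41) in macrophages (2.19 without run 5). *Cdc20*, which activates the APC, was at 11.7 CPM (6.24–20.03) in cDC1, 10.4 (9.41–11.5) in CD8 cells, and 4.65 (3.60–5.90) in macrophages, and with raw sums CD8 cells (15.9) stood above cDC1 (11.5). *Bub1b*, a checkpoint kinase relative, was at 9.64 CPM (8.10–11.4) in macrophages and 6.58 (5.79–7.45) in CD8 cells, with the higher value in macrophages. *Aurkb*, the kinase of the chromosomal passenger complex, was at 11.7 CPM (6.24–20.03) in cDC1 and about the same in macrophages (6.24) and CD8 cells (5.79). *Aurka*, a kinase of the spindle poles, was at 4.78 CPM (3.72–6.06) in macrophages and 3.43 (2.87–4.07) in CD8 cells. *Bub1*, a checkpoint kinase, reached its highest value, 7.68 CPM, on 5 UMIs in tumor cells.

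Of the 8 spindle and cytokinesis genes, 4 had their highest value in Tregs, on 3 to 8 UMIs each, 3 in CD8 cells, and 1 in cDC2. *Racgap1*, which with *Kif23* forms the centralspindlin complex, was at 48.0 CPM (45.8–50.2) in CD8 cells, 35.1 (25–48.0) in cDC1, 18.7 (12–27.8) in CD4 cells, 14.9 (13–17.0) in macrophages, and 4.61 (0.950–13.5) in tumor cells. *Kif23* was at 54.4 CPM (23.5–107) in Tregs, 36.0 (25.7–49.1) in cDC1, 26.5 (18.3–37) in CD4 cells, 22.3 (20.8–23.8) in CD8 cells, and 12.3 (10.6–14.3) in macrophages. The partners of the complex thus differed in order among the types. *Prc1*, which bundles the microtubules of the midzone, was at 21.4 CPM (19.97–22.9) in CD8 cells and 20.2 (13.2–29.7) in CD4 cells, and lowest in cDC1 at 7.21 (3.11–14.2; 8 UMIs), the only member with its lowest level there. The *Prc1* levels of cDC2 (4 UMIs), macrophages, and tumor cells lay within this cDC1 interval. *Kif11*, the motor that separates the spindle poles, was at 20.4 CPM (4.21–59.6) in Tregs, 20.2 (18.8–21.7) in CD8 cells, 19.8 (12.4–30.01) in cDC1, and 7.004 (5.70–8.51) in macrophages. *Nusap1*, a microtubule-binding protein, was at 34.0 CPM (11.04–79.4) in Tregs, 24.9 (13.3–42.6) in cDC2, 23.4 (15.3–34.3) in cDC1, 19.3 (18.0–20.8) in CD8 cells, and 6.93 (5.64–8.43) in macrophages. *Stmn1*, a tubulin-binding protein, was at 197 CPM (193–202) in CD8 cells, 181 (157–208) in cDC1, 161 (128–199) in cDC2, 116 (98.2–136) in CD4 cells (53.1 without run 1), and 94.6 (89.6–99.7) in macrophages. CD8 cells and cDC1, neighbors in the order of *Stmn1*, did not differ beyond their intervals. *Tpx2*, a spindle assembly factor, was at 34.0 CPM (11.04–79.4) in Tregs, 18.0 (11–27.8) in cDC1, 10.3 (9.33–11.4) in CD8 cells, and 9.78 (8.23–11.5) in macrophages, and *Kif20a*, a motor of cytokinesis, gave few UMIs, between 0.779 and 3.83 CPM where it was seen.

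*Cenpa*, the histone H3 variant that marks centromeres, departed from the other mitotic members. It was at 220 CPM (182–264) in cDC2, 204 (138–291) in Tregs (135 without run 4), 154 (132–179) in cDC1, 138 (118–160) in CD4 cells, 135 (132–139) in CD8 cells, and 125 (119–131) in macrophages, with tumor cells far below at 13.8 (6.32–26.2). Of cDC2, 40.2% held a *Cenpa* UMI, and of macrophages 26.2%. *Cenpe*, the kinetochore motor, and *Cenpf*, a kinetochore protein, were highest in cDC1 at 21.6 CPM (13.9–32.2) and 23.4 CPM (15.3–34.3) and stood in macrophages at 11.5 (9.83–13.4) and 8.46 (7.03–10.1).

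Of the replication genes, *Pcna* varied little among the immune types and *Mcm6* by much. *Pcna* was at 107 CPM (89.6–126) in CD4 cells, 105.5 (102–109) in CD8 cells, 105.1 (99.8–110) in macrophages, and 97.3 (79.8–117) in cDC1, with overlapping intervals, and still at 67.6 (49.1–90.7) in tumor cells. *Mcm6*, 1 of the 6 subunits of the MCM helicase, was at 98.9 CPM (95.8–102) in CD8 cells, 81.6 (42.2–143) in Tregs, and 79.4 (64.8–96.4) in CD4 cells, against 35.1 (25–48.0) in cDC1, 24.1 (21.7–26.8) in macrophages, and 9.58 (3.11–22.4) in cDC2. The 6 proteins work in a ring of equal parts, but *Mcm3* was at 38.9 CPM (36.9–40.9) in CD8 cells and 40.2 (37–43.6) in macrophages and *Mcm5* highest in cDC1 at 39.6 (28.8–53.2). *Mcm7* was at 44.1 CPM (32.7–58.4) in cDC1, 36.1 (34.2–38.1) in CD8 cells, and 18.5 (16.4–20.9) in macrophages, and with raw sums CD8 cells (49.3) stood above cDC1 (42.9). *Rrm2*, the S phase subunit of ribonucleotide reductase, was at 30.3 CPM (28.5–32.0) in CD8 cells, 24.3 (16–35.4) in cDC1, and 11.8 (10.1–13.7) in macrophages. *Rrm1*, its partner, ranged from 24.6 CPM (14.0–39.9) in tumor cells to 54.4 (23.5–107) in Tregs. *Tyms*, thymidylate synthase, was at 47.6 CPM (19.1–98.1) in Tregs, 33.9 (32.1–35.8) in CD8 cells, 14.0 (12.1–16.1) in macrophages, and 6.14 (1.67–15.7) in tumor cells. *Uhrf1*, which keeps DNA methylation through replication, was highest in cDC1 at 23.4 (15.3–34.3), and 12.8 (11.7–14.0) in CD8 cells.

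*Mki67* and *Top2a*, the usual markers of division, stood highest in cDC1. *Mki67* was at 121 CPM (101–143) in cDC1, 107 (81.0–139) in cDC2, 55.5 (53.2–57.9) in CD8 cells, 46.5 (43.0–50.1) in macrophages, 30.4 (21.6–41.5) in CD4 cells, and 12.3 (5.31–24.2) in tumor cells. *Top2a* was at 115 CPM (96.2–137) in cDC1, 103 (99.8–106) in CD8 cells, 80.5 (58.0–109) in cDC2, 50.6 (39.1–64.5) in CD4 cells, and 38.8 (35.6–42.1) in macrophages. CD8 cells and cDC1 thus overlapped in *Top2a*, and with raw sums CD8 cells stood at 151 and cDC1 at 147 CPM, while CD8 cells stood below cDC1 in *Mki67* (89.5 and 144 CPM with raw sums). *Hmgb2* was at 943 CPM (891–998) in CD4 cells, 775 (766–783) in CD8 cells, 736 (686–788) in cDC1, 422 (323–541) in Tregs (273 without run 1), 281 (272–290) in macrophages, 266 (224–314) in cDC2, and 79.9 (59.7–105) in tumor cells. Macrophages of the CD4/CD8-selected matrix held less of some members than those of the CD11c-selected matrix, 122 CPM of *Hmgb2* (108–137), 73.3 of *Cenpa* (62.5–85.4), and 34.0 of *Mki67* (26.8–42.5).

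Across the 7 types, *Top2a* and *Mcm7* followed the sum of all members most closely (Spearman's rho 0.89 each, as a description over 7 types of 2 libraries), then *Racgap1* (0.86). Least alike were *Kif20a* (−0.50), *Bub1* (−0.21), and *Prc1* (0.07). The ranks of *Kif20a* and *Bub1* rest on few UMIs. *Kif20a* had at most 3 in each of cDC1, cDC2, tumor cells, CD4 cells, and Tregs, and *Bub1* at most 2 in each of cDC2, CD4 cells, and Tregs. Tregs, ranked lowest in both, held no UMI of either, which allows a level above that of every other type. The sum itself contains each gene.

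Within the CD11c-selected matrix, cDC1 were set against macrophages over all genes with at least 20 UMIs, as a fold of levels with 1 UMI added to each sum. At 2-fold or more, 19 of 40 members were higher in cDC1 and none lower, where 11.5% of the 10867 genes compared were higher and 19.1% lower. The median log2 difference was 0.99 over the members and -0.00 over all genes. The largest folds were those of *Nusap1* (3.47), *Plk1* (3.45), *Ccnb2* (3.41), and *Ube2c* (3.14), and *Mki67* (2.61), *Top2a* (2.99), and *Hmgb2* (2.62) were also past 2-fold. Of the replication members, *Mcm7* (2.42), *Tyms* (2.37), *Uhrf1* (2.15), and *Rrm2* (2.13) passed. *Pcna* (0.934), *Cks2* (0.961), *Prc1* (0.899), and *Ccne1* (0.896) lay near 1. Without each barcode run in turn, 16 to 24 members were higher.

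cDC2 differed from macrophages in fewer members. At 2-fold, 6 members were higher in cDC2 (11.6% of 10759 genes), namely *Nusap1* (3.83), *Mki67* (2.35), *Kif11* (2.17), *Top2a* (2.12), *Birc5* (2.07), and *Ccnb2* (2.05), and 2 lower (12.1% of genes), *Mcm6* (0.475) and *Aurka*. *Aurka* had no UMI in the 174 cDC2, which allows up to 5.75 CPM, above the macrophage level of 4.78 CPM, so that no lower level of it was detectable at this depth. For *Kif11* (7 UMIs in cDC2), *Ccnb2*, and *Mcm6* the intervals of cDC2 and macrophages overlapped, so that no difference in them was detectable. The share of members higher, 6 of 40, was near that of all genes, and so was the median log2 difference (0.33 over members, 0.08 over all genes). Without each run in turn, 4 to 11 were higher, and 0 to 5 lower.

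Tumor cells were below macrophages in 16 members at 2-fold (15.9% of 11279 genes) and above in 1, *Cdc20* (2.28 on 6 UMIs; 27% of genes). Of the lower members, *Plk1* had no UMI in tumor cells, and *Kif11*, *Aurkb*, *Tpx2*, and *Kif23* had 1 to 3 each. The upper limits of these levels lie above the macrophage levels, so that no lower level of them was detectable at this depth. *Ccna2* also had no UMI in tumor cells (119 in macrophages), but its upper limit lay below the macrophage level. The tumor cells of the CD4/CD8-selected matrix held 6 *Ccna2* UMIs. Among lower members with a UMI in tumor cells, the largest differences were in *Cenpa* (0.123), *Hmgb2* (0.290), *Mki67* (0.297), *Mcm5* (0.298), and *Mcm3* (0.305). For *Cdc20*, *Ccnb2*, and *Racgap1* the intervals of tumor cells and macrophages overlapped, so that no difference in them was detectable. The median log2 difference was -0.72 over the members and 0.31 over all genes. Without run 5 the count of lower members was 9, and without each of the other runs it went up to 17. The part of the mitochondrial share of the tumor gate in these folds was not tested.

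In the CD4/CD8-selected matrix, 10 of 40 members were 2-fold or more higher in CD8 than in CD4 cells and none lower, where 4.53% of 11516 genes were higher and 10.2% lower. These were *Ccna2* (4.5, on 3 UMIs in CD4 cells), *Ccnb2* (4.32, on 4), *Ube2c* (3.37), *Birc5* (2.74), *Cenpe* (2.54, on 6), *Aurkb* (2.49, on 2), *Racgap1* (2.47), *Ccnb1* (2.46, on 1), *Ccne1* (2.20), and *Top2a* (2.00). For *Aurkb* and *Ccnb1* the intervals of CD8 and CD4 cells overlapped, so that no difference in them was detectable. All but *Ccne1* act in G2 or mitosis. *Hmgb2*, *Pcna* (0.982), *Cks2* (1.01), and *Cenpa* (0.976) were not among them. Without run 1, which held 271 of the CD4 cells, 19 members were higher, and without each of the other runs at least 8. Tregs against CD4 cells could be compared for 24 members only. Of these, 7 were higher (13.8% of 6024 genes), led by *Ube2c* (7.10) and *Nusap1* (3.08, on 5 UMIs in Tregs). Only *Hmgb2* was lower (0.454; 6.62% of genes lower). For *Nusap1* the intervals of Tregs and CD4 cells overlapped, so that no difference in it was detectable. Without run 1 the count of higher members was 1.

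The next question was how far each member was held by cells without other narrow UMIs. For each member, cells with 5 or more UMIs of the narrow members other than itself were set against cells with none, a split chosen after seeing the data, in which the folds follow in part from the split. In CD8 cells, the members fell along a range from 2.00-fold to 368-fold. At the low end stood *Mcm6* (2.00), *Pcna* (2.47), *Cks2* (2.74), *Ccne1* (3.13), and *Cenpa* (3.41). Cells without other narrow UMIs held a *Mcm6* UMI in 20.6%, a *Pcna* UMI in 23.4%, a *Cks2* UMI in 25.1%, and a *Cenpa* UMI in 26.1% of cases. *Hmgb2* was in 70.4% of these cells at 509.5 CPM, against 3186 CPM in the others (6.25-fold).

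At the other end stood members that were almost absent from CD8 cells without other narrow UMIs. *Birc5* was at 412 CPM in the cells with 5 or more and 1.12 CPM (0.641–1.82; 16 UMIs) in those with none, a 368-fold difference. *Ccna2* (209), *Ccnb2* (195), *Cenpf* (183), and *Bub1* (157, on 3 UMIs, level 0.0435–0.616 CPM in the cells with none) followed. *Mki67* was in 65.8% of the cells with 5 or more and 2.77% of those with none (57.4-fold). *Top2a*, in contrast, was in 12.1% and *Stmn1* in 14.9% of the CD8 cells without other narrow UMIs (15.4-fold and 24.0-fold). *Racgap1*, a narrow member, was in 9.73% (5.38-fold).

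Macrophages showed nearly the same ends but differed in the middle. *Pcna* (1.96) and *Cenpa* (1.96) had the smallest folds, and 23.7% and 24.2% of macrophages without other narrow UMIs held a UMI of them. *Hmgb2* was in 38.1% (6.75-fold). *Racgap1* was in 1.17% (35.5-fold) and *Top2a* in 1.93% (67.2-fold), far fewer than in CD8 cells without narrow UMIs. *Mcm6* was in 4.67% (4.31-fold). *Prc1* (3.25% of CD8 cells against 0.663% of macrophages) and *Kif11* (2.71% against 0.406%) differed in the same direction, and these 5 were named after their values were seen. *Ccna2* had 1 UMI in 2697 macrophages without other narrow UMIs (0.124 CPM, 0.00313–0.689) and 103 UMIs in 333 with 5 or more.

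In cDC1 the low end was the same in *Pcna* (1.83-fold) and *Cenpa* (2.91-fold; in 22.1% of the cells without others), and 47.8% of those cells held *Hmgb2*. *Racgap1* was at 167 CPM on 37 UMIs in cDC1 with 5 or more narrow UMIs and had 1 UMI in 160 cells with none. *Mki67* departed in cDC2 and migratory DC, where 16.2% and 13.9% of cells without other narrow UMIs held a UMI (67.6 and 59.7 CPM), against 4.22% in cDC1, 3.54% in macrophages, and 2.77% in CD8 cells. In these 2 gates *Mki67* was thus seen more often than elsewhere in cells that held none of the other narrow members. Of the genes of other cell types in the migratory DC gate, the levels have been given above.

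**Figure D5:**
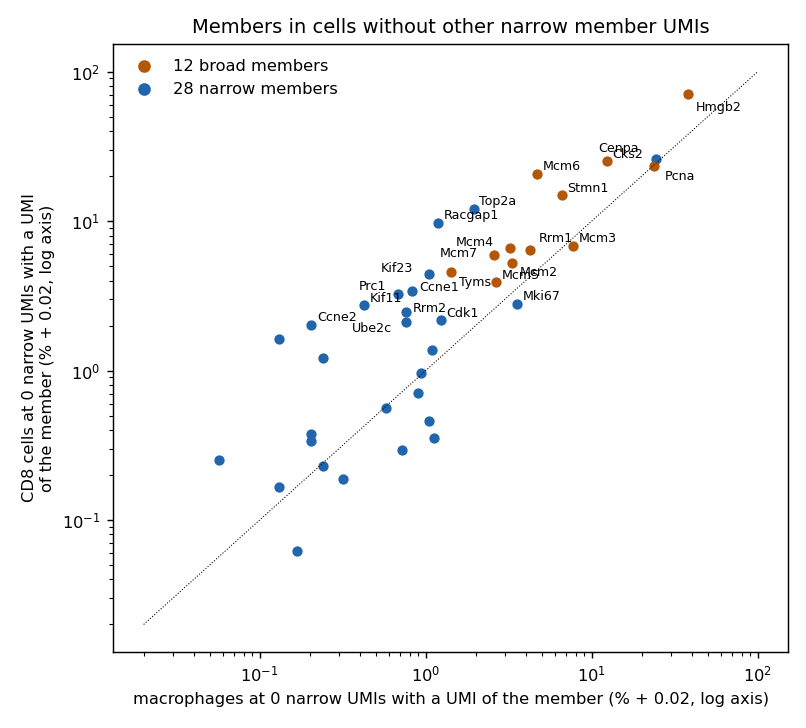
Each point is a member, placed by the percent of macrophages (x) and CD8 cells (y) without other narrow UMIs that hold a UMI of it, on log axes after adding 0.02, with broad members in brown, narrow in blue, and a dotted line of equality. *Hmgb2*, *Cks2*, *Cenpa*, and *Pcna* lie at the top right, while *Top2a* (12.1% of CD8 cells, 1.93% of macrophages), *Racgap1*, and *Mcm6* lie above the line.

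The share of G1/S members among the phase members was counted in each type. Over the 13 G1/S and 25 G2/M members, G1/S members gave 40.1% (39.7–40.6) of the UMIs in all CD8 cells, 39.3% (38.4–40.2) in all macrophages, 45.3% (42.4–48.2) in CD4 cells, 32.4% (30.1–34.8) in cDC1, and 27.4% (23.7–31.3) in cDC2. Both sums hold genes seen in many cells without other narrow UMIs. In macrophages, *Cenpa* gave 1798 and *Cks2* 851 of 6977 G2/M UMIs, and *Pcna* 1515 of 4516 G1/S UMIs. The part of these genes in the shares over all cells, and in their order, was not tested. In cells with 5 or more narrow UMIs, a set weighted to G2/M by its choice since most narrow members are of that phase, the shares were 27.5% (26.9–28.1) in CD8 cells, 24.4% (23.2–25.6) in macrophages, 23.6% (21.1–26.4) in cDC1, 21.3% (16.6–26.5) in cDC2, and 36.9% (31.8–42.1) in the 21 CD4 cells. The intervals of CD8 cells and macrophages overlapped over all cells and did not in the cells with 5 or more narrow UMIs.

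Other cell cycle genes, from lists that the members do not include, were higher in the cells with more member UMIs. When CD8 cells with 5 or more UMIs of the 40 members were set against those under 5, 20 of 25 S phase genes and 22 of 25 G2 and M phase genes were 2-fold or more higher, where 3.32% of 11460 genes were (and 0.646% were lower). In macrophages 20 of the 24 S phase and 22 of the 23 G2 and M phase genes that could be compared were (5.77% of 10699 genes, with 2.21% lower). With the narrow members, cells at 5 or more against cells at 0, a contrast chosen after seeing the data, 22 and 24 of 25 passed in CD8 cells (8.62% of 10411 genes, with 2.06% lower) and 18 of 22 and 20 of 21 compared in macrophages (10.5% of 10074 genes, with 5.28% lower). The exceptions in CD8 cells were *Cdt1* (1.94), which loads the MCM helicase, *Nasp* (1.52), a histone chaperone, *Ung* (1.14), a DNA repair enzyme, and *Pttg1* (0.885), the securin gene. *Pttg1* was near 1 in macrophages as well (0.953). In cDC1, 8 of 9 S phase and 6 of 7 G2 and M phase genes that could be compared passed with 40 members (6.3% of 5336 genes, with 1.52% lower), and 4 of 6 and 6 of 6 with the narrow members (8.22%, with 2.67% lower). In cDC2, 0 of 2 and 1 of 1 passed with 40 members (4.49%, with 2.95% lower), and 0 of 1 and 1 of 1 with the narrow members (5.36%, with 3.79% lower). In CD4 cells, 0 of 10 and 0 of 4 passed with 40 members (2.29% of 5683 genes, with 1.79% lower), and 4 of 5 and 2 of 3 with the narrow members (15.3%, with 6.77% lower), on 21 cells. Most of the S, G2, and M phase genes compared were thus 2-fold or more higher in CD8 cells, macrophages, and cDC1 by both counts, and in CD4 cells by the narrow count but not by the 40 members.

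Genes of G1 control passed in smaller shares than the S, G2, and M phase genes. With the 40 members, cells at 5 or more against under 5, 3 of 15 G1 regulators were higher in each of CD8 cells and macrophages. Of the CDK inhibitor genes compared, 1 of 7 and 1 of 5 were (3.32% and 5.77% of all genes compared). With the narrow members, 5 of 15 G1 regulators were higher in CD8 cells (8.62% of all genes compared), namely *E2f2* (21), *E2f1* (9.49), *Cdk2* (5.08), *E2f3* (3.72), and *Rbl1* (3.51). In macrophages 4 of 15 were higher (10.5% of all genes), *Rbl1* (7.70), *E2f2* (4.55), *Cdk4* (2.53), and *Cdk2* (2.32). The median log2 difference of the G1 regulators was 0.30 in CD8 cells and 0.49 in macrophages (0.12 and 0.14 over all genes), against 2.73 and 2.91 for the S phase and 5.08 and 4.94 for the G2 and M phase genes. D type cyclins, which carry growth signals to *Cdk4* and *Cdk6*, did not pass in CD8 cells (*Ccnd2* 0.564, *Ccnd3* 1.23) or macrophages (*Ccnd1* 1.40). Of the CDK inhibitor genes that could be compared, 2 of 7 were higher in CD8 cells and 3 of 5 in macrophages with the narrow members. Their medians were 0.78 and 1.13 on the log2 scale. *Cdkn2c* was higher in both (2.21 in CD8 cells, 11.8 in macrophages), *Cdkn2a* in CD8 cells (6.50), and *Cdkn1c* (2.19) and *Cdkn2d* (3.33) in macrophages. *Cdkn1c* had 32 UMIs over all macrophages. *Cdkn1b*, the p27 gene of resting cells, stood at 0.729 in CD8 cells, and *Cdkn1a*, the p21 gene, at 0.575 in macrophages.

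Over all cells of each gate, the levels of D cyclins and CDK inhibitors differed between the types. *Ccnd1* was at 317 CPM (285–352) in cDC1, 255 (213–302) in cDC2, 144 (117–177) in tumor cells, 90.7 (85.9–95.8) in macrophages, and 2.10 (1.66–2.61) in CD8 cells. *Ccnd2* was at 424.5 CPM (390–462) in CD4 cells, 357 (351.5–363.5) in CD8 cells, 159 (127–197) in cDC2, 42.1 (38.8–45.6) in macrophages, and 24.3 (16–35.4) in cDC1. cDC1 and cDC2 thus shared *Ccnd1* and differed in *Ccnd2*. *Cdkn1a* was at 499 CPM (487–510) in macrophages, 469 (412–532) in cDC2, 166 (143–191.5) in cDC1, and 49.1 (46.9–51.3) in CD8 cells, and at 2481 (2240–2741) in neutrophils, in which no cell had 5 narrow UMIs. *Cdkn1b* was at 160 CPM (156–164) in CD8 cells and 29.2 (26.5–32.1) in macrophages.

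Subsets were gated within macrophages and CD8 cells on thinned UMIs of genes outside the module. Of 299 macrophages with a UMI of *Lyve1* or *Cd209f*, markers of resident-like macrophages, 4.35% (2.34–7.32) had 5 or more UMIs of the 40 members and 0.669% (2 cells; 0.0811–2.40) of the narrow members. The shares were 14.2% (11.8–17.0) and 6.99% (5.25–9.08) of 730 macrophages with *Gpnmb* or *Spp1*, 16.2% (14.3–18.3) and 5.74% (4.55–7.13) of 1325 with *Ly6c2* or *Ccr2*, and 21.04% (19.4–22.7) and 8.44% (7.37–9.61) of the 2453 others. The *Lyve1* or *Cd209f* macrophages lay below each other subset without overlap of intervals. Their median depth was 8178 UMIs, against 16853.5 in the *Gpnmb* and *Spp1* subset, 9337 in those with *Ly6c2* or *Ccr2*, and 9692 in the others. The runs of the *Lyve1* or *Cd209f* macrophages ranged from 0 to 10.8% with 40 members, and those of the other subsets from 10.8 to 31.1%.

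Among CD8 cells, those with *Pdcd1* and *Havcr2* but no *Tcf7* UMI, gated as terminally exhausted-like, stood at 53.8% (47.0–60.6) of 221 cells with 5 or more UMIs of the 40 members. Progenitor-like cells (*Pdcd1* and *Tcf7*, no *Havcr2*) stood lower, at 41.1% (37.5–44.7) of 738. The intervals did not overlap, but the barcode runs did, at 32.7 to 79.2% for the former and 31.9 to 50.6% for the latter. With the narrow members the shares were 9.95% (6.34–14.7) of the terminally exhausted-like and 5.15% (3.67–6.999) of the progenitor-like cells, and the intervals overlapped. The median depths before thinning were 4666 and 4900 UMIs per cell.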

How the data were processed

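The members and all gene lists were chosen with earlier results of these data known. Per the submitters' processing notes, reads were processed with Cell Ranger 3.0.2 and the genome build mm10, and whole-number counts of UMIs were deposited unnormalized, as 1 matrix for each of the 2 cell selections. Barcodes name no sample, 0 columns of other samples were present, and the planned tests of genotypes with edgeR or DESeq2 were not run. Any filter on cells or doublets before deposit is not given in the sources used here.

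Cells with under 200 detected genes or under 3000 UMIs were left out, and the others were gated on raw marker UMIs and thinned to 3000 UMIs by a random draw without replacement (fixed seed). Doublets were not removed. A gene of the macrophage gate and some CD8 subsets are not reported here. Cells that met 2 gates (174 and 2) were put in neither. A level of 0 was given the upper limit of 3 counts. Folds over all genes used summed thinned UMIs with 1 UMI added to each sum, for genes with at least 20 UMIs over both groups, and called 2-fold differences. The steps were tested on simulated data. All 40 members were named by role. The contrasts that leave out Hmgb2, use 3 narrow UMIs, set 5 or more narrow UMIs against 0, or leave each member out of its own split were chosen after seeing the data. Other alternatives left out each barcode run, changed the thresholds, the thinning, the filters, and the scaling. Of 31053 symbols, 30431 (98.0%) matched GENCODE M21. Python 3.11.15, numpy 2.4.6, scipy 1.17.1, pandas 2.3.3, and matplotlib 3.10.9 were used. Total UMIs were 123642015 in the CD11c-selected and 135965765 in the CD4/CD8-selected matrix, and per-sample depth is unknown. Intervals cover counting error only.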

Additional observations from a re-analysis of the deposited data

How the results depend on the processing

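No paired analysis was possible because the columns carry no sample names. For the same reason the comparison of genotypes, with its replicate block, DESeq2, and leave-one-out alternatives, was not run. Another seed, gates on thinned UMIs, a mitochondrial limit of 10%, and no filter on genes moved none of the 9 shares beyond counting error, and a mean over cells moved none of the 7 summed levels. The causes of the shifts below were not tested, except that other thresholds or fewer members change the counts by construction.

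In the order macrophage, cDC1, cDC2, CD8, CD4, Treg, and macrophage of the CD4/CD8-selected matrix, shares were 7.68, 23.8, 12.6, 12.3, 10.7, 10.2, and 5.50% at 10 member UMIs, 10.3, 24.7, 13.6, 15.7, 14.7, 10.7, and 5.66% with thinning to 1500 UMIs, 6.99, 20, 13.2, 8.18, 4.91, 8.16, and 5.36% with 5 narrow UMIs, and 37.7, 53.0, 44.8, 73.2, 77.1, 75.5, and 21.7% at 3 member UMIs (tumor cells 9.68 and 10.5%). With 3 narrow UMIs they were 12.1% in macrophages, 27.6% in cDC1, 17.0% in CD8 cells, 10.5% in CD4 cells, 22.4% in Tregs, and 6.97% in the second macrophage gate. Without *Hmgb2* they were 12.9% in macrophages, 21.1% in CD8 cells, 13.3% in CD4 cells, and 22.4% in Tregs, and without the deepest 5% of cells 41.8% in CD8 cells.

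Raw UMIs summed without thinning gave summed member levels of 1293 CPM in macrophages, 2782 in cDC1, 1954.5 in cDC2, 634 in tumor cells, 2974 in CD8 cells, 2464 in CD4 cells, and 2956 in Tregs. With them no member was lower in cDC2 or higher in tumor cells than in macrophages, or lower in Tregs than in CD4 cells (0 each, where 2, 1, and 1 were), and genes called between cells with 5 or more and under 5 member UMIs were 831 in cDC1, 675 in cDC2, 724 in CD8 cells, and 353 in CD4 cells (main 417, 257, 455, and 232).

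At 1.5-fold, 15 members were higher and 6 lower in cDC2, 3 higher and 27 lower in tumor cells, 12 higher and 2 lower in Tregs, and 16 higher in CD8 cells than in their comparator. All genes called were then 5510 for cDC1 and 4690 for cDC2 against macrophages, 2622 for Treg and 3472 for CD8 against CD4 cells, and, split by member UMIs, 2252 in macrophages, 1320 in cDC1, 882 in cDC2, 1094 in CD8 cells, and 977 in CD4 cells. With no filter on low counts they were, in the same order, 7522, 7444 (tumor cells 9865), 5514, 6975, 3792, 2530, 2818, 2498, and 2318, and 18 members were higher in Tregs. The main counts were 3330, 2543 (4838), 1232, 1695, 853, 417, 257, 455, and 232. Cells at 5 or more against 0 narrow UMIs gave 1586 genes in macrophages, 1111 in CD8 cells, and 840 in CD4 cells.

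Without each barcode run in turn, shares ranged from 15.8 to 18.5% in macrophages, 32.7 to 35.5% in cDC1, 20.9 to 27.4% in cDC2, 3.37 to 4.46% in tumor cells, 41.1 to 45.8% in CD8 cells, 36.9 to 50.1% in CD4 cells, 30.3 to 43.6% in Tregs, 7.85 to 9.90% in the second macrophage gate, and 1.44 to 3.47% in the second tumor gate. Summed levels ranged from 1081 to 1218, 2242 to 2423, 1310 to 1565, 458 to 550, 2168 to 2263, 1539 to 2115, and 1630 to 2094 CPM in the first 7 of these. Members higher numbered 16 to 24 in cDC1, 4 to 11 in cDC2 (0 to 5 lower), and 1 to 2 in tumor cells (9 to 17 lower) against macrophages, and 1 to 8 in Tregs (0 to 1 lower) and 8 to 19 in CD8 cells against CD4 cells, with 688 to 1362 and 1502 to 2609 genes called in the last 2 and 140 to 248 genes in the split of CD4 cells. In the splits, S phase genes higher ranged from 4 to 7 in cDC1 and 0 to 1 in CD4 cells, G1 regulators from 2 to 4 in macrophages, 1 to 2 in cDC1, and 0 to 0 in cDC2, and CDK inhibitors from 1 to 2 in macrophages. Of the levels of single members above 0, 88 of 267 moved by over 1.5 times without some run (0 to 2.73 times), 99 of 267 with raw sums (0.316 to 6.63 times), and 38 of 267 with a mean over cells (0.301 to 2.88 times). Among the 145 levels on 20 or more UMIs, 28 moved so with raw sums, 20 of them in CD8 and 5 in CD4 cells, 0 with a mean over cells, and 9 without a run. These were *Kif11* (8.49 CPM), *Mcm5* (8.49), *Mcm7* (12.7), *Rrm2* (8.49), and *Stmn1* (53.1) in CD4 cells and *Hmgb2* (273) in Tregs without run 1, *Cenpa* (135) in Tregs without run 4, *Mcm2* (10.9) in cDC1 without run 3, and *Plk1* (2.19) in macrophages without run 5.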

Other observations

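Genes outside the member and reference lists that separated cells with 5 or more narrow UMIs from cells with none were alike at the top in CD8 cells and macrophages, among genes held by at least 20% of the cells with 5 or more. *Pclaf*, a PCNA-binding factor of replication, was at 569 CPM (543–596) against 4.64 CPM in CD8 cells (121-fold) and at 353 CPM (317–392) against 2.47 CPM in macrophages (136-fold). *Spc24*, a subunit of the kinetochore complex *Ndc80*, was at 185 CPM against 2.95 CPM in CD8 cells (61.4-fold) and at 117 CPM against 0.742 CPM on 6 UMIs in macrophages (136-fold). *Hist1h1b*, a linker histone gene, was at 324 against 5.49 CPM (58.4-fold) and 160 against 1.11 CPM (129.99-fold), and *Cks1b*, the relative of *Cks2*, at 302 against 9.92 CPM (30.3-fold) and 234 against 9.397 CPM (24.7-fold). *Cks1b* was held by 2.89% of the CD8 cells without narrow UMIs, where *Cks2* was held by 25.1%.

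Tubulin stood out in macrophages by its detection. *Tubb5*, a beta tubulin, was held by 89.6% of the macrophages with 5 or more narrow UMIs and 38.1% of those with none, at 1256 CPM (1188–1327) against 183 CPM (174–193). These genes were named after their values were seen, and the folds share the split with the members.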
